A study of Mus musculus with 31 samples.

Results

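Kidney RNA of 31 BXD strains was ranked by the expression of 5 transporter genes of the proximal tubule, and the 8 highest arrays were compared with the 8 lowest, so that 16 of the 31 arrays entered the comparison and 15 did not. The arrays were chosen by the mean log2 ratio of Slc22a6, Slc22a12, Slc5a2, Slc34a1 and Lrp2, with the probes of a gene averaged first. Because the groups were drawn from measured values, the 5 genes are described below without a test and stayed out of the fit, and all p-values concern other genes on the same arrays. BXD strains are inbred lines descended from the mouse strains DBA/2J and C57BL/6J, and every array set 1 BXD/TyJ strain (Alexa Fluor 647) against the same C57BL/6J reference (Alexa Fluor 555). For each strain, RNA from 3 replicates was pooled. Strain and reference animals were all male and aged 8 weeks. Both groups therefore shared sex, age, reference and dye orientation. No dye was swapped.

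The titles name kidney, whereas the source and tissue labels name whole brain. Ratios to a reference carry no level, so the tissue could not be checked by the abundance of its markers. A log2 ratio above 0 is read as higher in the strain than in the reference, as limma by convention sets the red dye over the green. This reading is likely but not certain, because the labels state neither the base nor the direction. A difference between the groups is always given as high minus low, in log2 units. With 1 array per pooled strain, p-values measure the spread between arrays, in which strain, pool and array cannot be told apart.

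The proximal tubule takes back most of the filtered glucose, phosphate, amino acids and protein and secretes organic anions and drugs into the urine. Its cells draw their energy almost entirely from mitochondrial oxidation of fatty acids and other fuels, since the sodium gradient that drives uptake is kept up by the sodium pump. In male mice many of its genes depend on androgens. The 5 ranking genes cover different transport tasks of this segment. Slc22a6 encodes the basolateral organic anion transporter OAT1, Slc22a12 the apical urate transporter URAT1, Slc5a2 the glucose transporter SGLT2, Slc34a1 the phosphate transporter NaPi-IIa, and Lrp2 the endocytic receptor megalin.

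The score was 1.36 in BXD2, 1.25 in BXD20, 1.03 in BXD12, 0.90 in BXD5, 0.81 in BXD1, 0.65 in BXD27, 0.55 in BXD6 and 0.54 in BXD14, the 8 strains of the high group. In the low group it was -0.88 in BXD38, -0.55 in BXD15, -0.47 in BXD39, -0.40 in BXD16, -0.39 in BXD33, -0.34 in BXD36, -0.32 in BXD31 and -0.21 in BXD9. The nearest strains outside were BXD28 at 0.35, below BXD14, and BXD34 at -0.13, above BXD9. The low edge thus lay close to its neighbour, and the high edge was set off by a wider step.

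**Figure D1:**
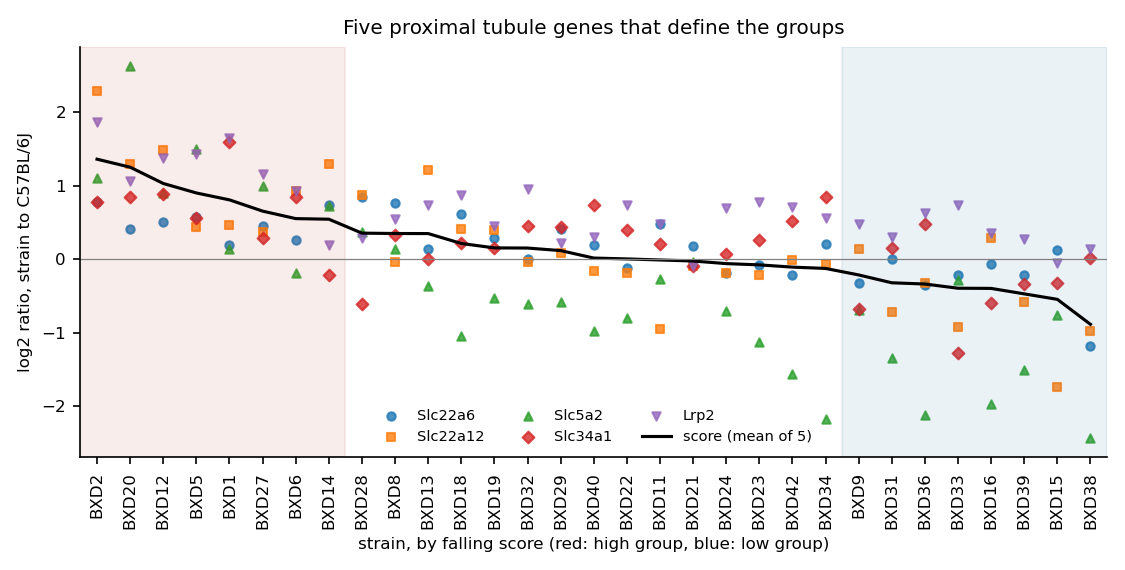
Log2 ratio of strain to C57BL/6J for each of the 5 ranking genes (symbols) and their mean (line) on all 31 arrays, ordered by falling score with the high group shaded red and the low group blue. Slc5a2 ran from -2.43 in BXD38 to 2.63 in BXD20, a wider range than any of the other 4 genes, and Slc34a1 and Lrp2 overlapped between the groups.

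Slc5a2 had the widest spread of the ranking genes, with an SD of 1.14 over 31 arrays. It ran from -0.19 through a median of 0.95 to 2.63 in the high group, and from -2.43 through -1.42 to -0.29 in the low group. Slc22a12 ran from 0.37 through 1.11 to 2.28 in the high group, and from -1.73 through -0.65 to 0.29 in the low group. Neither gene overlapped between the groups, as the choice of arrays favours. Slc22a6 also kept apart, with 0.19, 0.48 and 0.77 as lowest, median and highest value in the high group and -1.17, -0.22 and 0.13 in the low group. Slc34a1 overlapped, with -0.22, 0.81 and 1.58 in the high group and -1.27, -0.33 and 0.48 in the low group. For Lrp2 the corresponding values were 0.19, 1.26 and 1.86 against -0.05, 0.33 and 0.73, and 7 of 8 high arrays lay above the highest low array.

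The 5 genes did not vary as a single unit. Over the 31 arrays, which share the reference and the normalization, the correlation of a pair ran from 0.22 for Slc5a2 with Slc34a1 to 0.68 for Slc22a6 with Slc5a2. BXD14 entered the high group with Slc34a1 at -0.22, and BXD6 entered it with Slc5a2 at -0.19. When the ranking was repeated without a gene, no strain moved from one group to the other. The gene left out then differed by 0.70 for Slc22a6, 1.51 for Slc22a12, 1.88 for Slc5a2, 0.42 for Slc34a1 and 0.85 for Lrp2, and each of the 5 overlapped between the groups when left out. The 2 probes of Lrp2 correlated at 0.16. The median of 1 probe was 2.16 in the high and 0.57 in the low group, and that of the other 0.40 and 0.20, so the Lrp2 part of the score came mostly from 1 probe.

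Promoters are shown for members that carried a shared motif, since the transporter genes were ranked together and HNF1 factors are known regulators of proximal tubule genes. The motif GTTAAT, a core motif of HNF1, was searched on both strands from 250 bases before to 50 bases after the start in the RefSeq promoter table of build GRCm38.p6. The 17 genes searched were the 5 ranking genes and 12 transport and proximal tubule genes named below, and 13 of them had a promoter in the table. It was found in 3, namely Slc22a6 (chr19:8617746-8618045, plus strand), Slc34a1 (chr13:55399398-55399697, plus strand) and Khk (chr5:30921309-30921608, plus strand). Capitals mark the motif as it stands on the strand printed, where ATTAAC is the reverse complement.
Slc22a6: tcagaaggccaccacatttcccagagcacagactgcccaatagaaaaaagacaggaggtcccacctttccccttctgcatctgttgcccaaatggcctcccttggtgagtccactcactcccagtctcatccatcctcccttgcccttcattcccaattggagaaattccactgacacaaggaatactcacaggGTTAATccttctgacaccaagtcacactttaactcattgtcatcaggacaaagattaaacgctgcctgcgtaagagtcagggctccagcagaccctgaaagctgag
Slc34a1: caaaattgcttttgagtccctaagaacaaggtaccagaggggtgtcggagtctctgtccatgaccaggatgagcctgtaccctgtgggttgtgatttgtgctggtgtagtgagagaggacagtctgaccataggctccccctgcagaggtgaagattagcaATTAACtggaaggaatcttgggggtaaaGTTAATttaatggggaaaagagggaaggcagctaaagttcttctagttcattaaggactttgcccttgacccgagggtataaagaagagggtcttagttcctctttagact
Khk: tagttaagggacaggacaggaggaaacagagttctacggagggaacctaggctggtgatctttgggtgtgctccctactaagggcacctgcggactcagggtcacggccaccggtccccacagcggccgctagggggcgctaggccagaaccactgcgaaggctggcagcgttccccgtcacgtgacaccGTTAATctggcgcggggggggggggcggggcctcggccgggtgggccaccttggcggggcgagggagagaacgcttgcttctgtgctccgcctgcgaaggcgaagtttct
The match began 56 bases before the start in Slc22a6, 89 and 61 bases before it in Slc34a1, and 60 bases before it in Khk. Among all 32851 promoters on record, 7.10% held the motif. Among the genes tested here it was 6.43%, among those called higher in the high group 6.32% (43 of 680) and among those called lower 7.52% (34 of 452). The HNF4-type repeat CAAAGTCCA, also searched on both strands, stood in 1 of the 13 genes, Pdzk1, and in 0.475% of all promoters. Neither motif contains the other.

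Across the other genes the groups differed widely and in both directions. Of 21257 features tested, of which 15091 were named genes and the rest single probes without 1 gene name, 2072 (9.75%) passed an adjusted p of 0.05 in limma. The high group was higher for 1053 (4.95%) and lower for 1019 (4.79%). The count depended on the arrays chosen. With Slc5a2 left out of the score, BXD18 replaced BXD14 in the high group and BXD21 replaced BXD36 in the low group. Then 259 features were called, 174 higher and 85 lower. Why the count fell was not tested. Among named genes 873 (5.78%) were higher and 592 (3.92%) lower. The groups did not overlap for 215 features (1.01%), 122 of them higher (0.574%) and 93 lower (0.438%). The median difference over all features was -0.02. All 31 arrays hold the same set of values, so a centre near 0 was set by the normalization. That also favours calls in both directions, and the balance of higher and lower calls is no result about the strains.

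The same arrays also stood apart on the leading pattern of the whole data set. The first principal component of all features except the ranking genes held 20.5% of the variance over 31 arrays. It ran from 22.6 to 44.8 in the high group and from -43.9 to 22.0 in the low group, so the groups did not overlap on it, although BXD33 of the low group came within 1 unit of BXD6 of the high group. The middle arrays ran from -46.0 to 25.9. High arrays resembled each other, with a median correlation of 0.63 between pairs, whereas pairs of low arrays had 0.29 and pairs across the groups 0.32. With the first component as a covariate, 2 features were called (0.00941%), 1 in each direction, and 2007 had an unadjusted p under 0.05. The 2 were Slc22a7 and an unnamed probe. Of the called features, 89.3% kept their sign with the covariate, against 63.4% of all features. Called features were selected for large differences on the same arrays, which by itself favours a kept sign.

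Strain numbers also divided between the groups. Of the high group 6 of 8 arrays were numbered up to BXD14, and of the low group 1 of 8, BXD9. A block for this class, a division taken from earlier results of these data and not from the labels, left 765 features called (3.6%), 387 higher (1.82%) and 378 lower (1.78%), of which 640 were among the 2072 with the same sign. All 2072 kept their sign, which their selection on the same arrays favours. The block compares arrays within each class. Up to BXD14 the only low array was BXD9, and from BXD15 on the only high arrays were BXD20 and BXD27. A call kept or lost under the block therefore leans on these few arrays. Whether the class of strain number or the first component accounts for a difference was not tested. Among the arrays from BXD15 on (2 high and 7 low), chosen after seeing the data, 50 features were called (0.235%). Without BXD15 and BXD38, the arrays of lowest score, 1500 features were called (7.06%), 799 higher (3.76%) and 701 lower (3.3%). The 15 middle arrays did not form the groups, but they share the reference, the normalization and the first component with them. The slope on the same 5-gene score within the middle arrays is therefore no separate test. It had the same sign as the group difference for 82.7% of the called features, against 63.5% of all features.

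**Figure D2:**
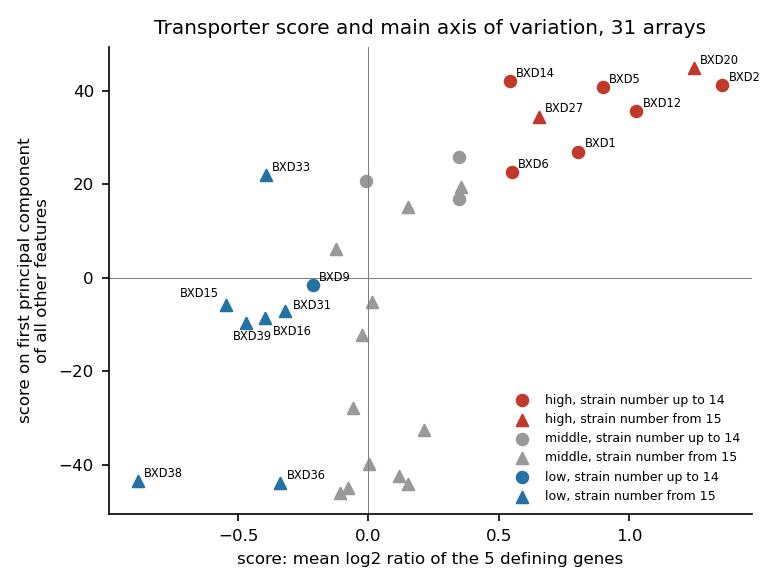
Mean log2 ratio of the 5 ranking genes (horizontal) against the score on the first principal component of all other features (vertical) for each of the 31 arrays, with colour for the group, circles for strain numbers up to 14 and triangles for those from 15. The 8 high arrays lie between 22.6 and 44.8 on the component and the 8 low arrays between -43.9 and 22.0.

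Genes of the proximal tubule lists that had not ranked the arrays were higher in the high group where they were called at all. Of 111 such genes measured in 4 lists, 22 (19.8%) were called higher, against 5.78% of named genes, and 0 were called lower. Of the 22, 14 stood in the list of enzymes and regulators (14 of 55, 25.5%). The share was 15.4% for solute uptake, 14.3% for organic ion transport and 12.5% for endocytosis, beside 14.3% in the loop of Henle list. Their median difference was 0.32, beside 0.01 over all named genes. Lists and members were selected with earlier results of these data known and are described by counts. The lists name genes by function, and the endocytosis list includes clathrin, adaptor and Rab genes. The pooled share is therefore no measure of this segment alone. In pooled tissue RNA, fewer cells of a type and less RNA per cell cannot be told apart.

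Slc22a7, which encodes the organic anion transporter OAT2, had the smallest adjusted p of the proximal tubule genes tested. It ran from 0.54 through a median of 1.19 to 1.93 in the high group, and from -2.13 through -0.71 to -0.17 in the low group. The groups did not overlap, and the middle arrays had a median of -0.37. The difference was 1.96 ± 0.242 (SE) with an adjusted p of 5.52e-04 in limma. Its value was 1.83 with the strain number block (adjusted p 0.0107) and 2.98 with the first component as covariate (adjusted p 0.00416). It was the only named gene still called under both of these alternatives. Slc22a26, another member of the organic anion transporter family, ran from -0.75 to 0.72 in the high and from -2.10 to -0.21 in the low group, with overlap. It differed by 1.34 ± 0.278 (adjusted p 0.00906), and by 0.70 under the block (adjusted p 0.156). These were the 2 called among 14 organic ion transport genes (14.3%), beside 9.71% of all named genes (5.78% higher). The median difference of the list was 0.35. Slc22a8, the transporter OAT3 that works beside OAT1, differed by 0.56 and was not called (adjusted p 0.223), with -0.22 to 2.58 in the high and 0.04 to 0.82 in the low group.

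The solute uptake genes, the group closest in function to the ranking genes, had the smallest median difference of the 4 proximal tubule lists. Of 26 measured, 4 (15.4%) were called higher and 0 lower, beside 9.71% of all named genes (5.78% higher). The median difference was 0.09. It was 0.24 with 6 against 6 arrays, 0.24 with spot position removed and 0.22 with the first component as covariate. Without BXD15 and BXD38 the counts were 1 and 1, beside 3.76% and 3.3% of all features. The 4 did different work. Slc27a2, a transporter and activator of very long chain fatty acids, ran from -0.03 through 0.90 to 1.89 in the high group and from -2.74 through -1.67 to 1.23 in the low group. The groups overlapped, and the difference was 2.10 ± 0.508 (adjusted p 0.0171). Pdzk1 encodes the scaffold that holds transporters in the brush border. It ran from 0.55 through 1.60 to 2.89 in the high and from -0.09 through 0.44 to 1.10 in the low group, and differed by 1.16 ± 0.323 (adjusted p 0.0319). Slc7a13, an anionic amino acid transporter of the late proximal tubule, differed by 0.80, and Slc20a2, the phosphate transporter PiT-2, by 0.56. Only these last 2 of the 4 were still called under the strain number block. Some uptake genes differed below 0 without being called. Slc6a19, the main neutral amino acid transporter of the brush border, ran from 0.05 to 0.46 in the high and -0.01 to 1.00 in the low group, a difference of -0.26 (adjusted p 0.208) that became 0.24 with the component. The sodium-proton exchanger gene Slc9a3, picked after its values were seen, differed by -0.55 (adjusted p 0.0888).

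In the endocytosis list, 2 of 16 genes (12.5%) were called, both higher, beside 9.71% of all named genes (5.78% higher). The median difference was 0.22. Cd36, a receptor for fatty acids and lipoproteins, ran from 0.33 through 0.95 to 1.44 in the high group and from -1.23 through -0.46 to 0.14 in the low group. There was no overlap, and the difference was 1.49 ± 0.21 (adjusted p 0.00147), with the same size under the strain number block (adjusted p 0.0136). Clta, a clathrin light chain, differed by 0.85 ± 0.264 (adjusted p 0.0487; 0.0852 under the block). Cubn encodes cubilin, the partner of megalin. It ran from 0.14 to 0.52 in the high and from -0.73 to 0.77 in the low group, a difference of 0.24 that was not called (adjusted p 0.375).

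Enzymes of the proximal tubule held the largest share of called genes of the 4 lists. Of 55 enzymes and regulators, 14 (25.5%) were called higher and 0 lower, beside 9.71% of all named genes (5.78% higher). The median difference was 0.37, and 0.51 with the strain number block, under which 8 were called. Tmem176a encodes a membrane protein abundant in this segment and is measured by 2 probes. It ran from 1.33 through 1.98 to 2.77 in the high group and from -1.43 through 0.28 to 0.84 in the low group. The groups did not overlap, the difference was 1.88 ± 0.286 (adjusted p 0.00234), and its 2 probes gave 1.55 and 2.21. Tmem176b, named after its values were seen, was also called, with a difference of 0.61 (adjusted p 0.0236). Khk, ketohexokinase of fructose breakdown, ran from 0.41 through 1.58 to 2.62 in the high and from -1.62 through 0.08 to 0.69 in the low group and differed by 1.74 ± 0.378 (adjusted p 0.0109). Acsm3, a medium-chain acyl-CoA synthetase, ran from 0.33 through 0.60 to 1.19 in the high and from -2.46 through -0.83 to 0.10 in the low group. It did not overlap and differed by 1.73 ± 0.306 (adjusted p 0.00476). Cyp4b1, a cytochrome P450, differed by 1.69 ± 0.492 (adjusted p 0.0371; 0.148 under the block), with overlap and with 1 very low array, BXD38.

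The other called genes of this list, named after their values were seen, were enzymes of amino acid breakdown, peptide cleavage, steroid and lipid handling and genes of less known function. Dpep1, a brush border dipeptidase, differed by 1.38, Mep1a, a subunit of the protease meprin, by 1.29, and Dao, D-amino acid oxidase, by 1.17. Hgd of tyrosine breakdown differed by 0.73 without overlap, and Pipox of lysine breakdown by 0.59. Cyp2j5, an epoxygenase, differed by 0.79, Akr1c21, a hydroxysteroid dehydrogenase, by 1.37, Keg1 by 1.16 and Tmem174 by 0.60. Not every gene of the list followed. Fbp1, the gluconeogenic fructose bisphosphatase, differed by -0.33 (adjusted p 0.235). Hnf4a, a transcription factor of the segment, differed by 0.06 (adjusted p 0.733), and its 2 probes went in opposite directions, by 0.37 and -0.24.

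**Figure D3:**
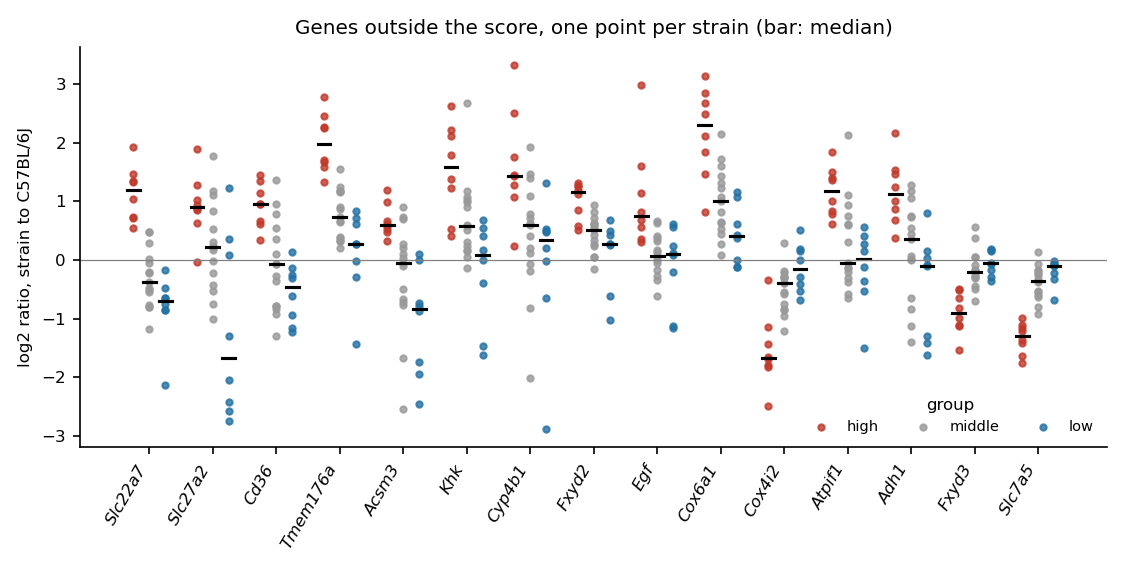
Log2 ratio of strain to C57BL/6J for 15 genes outside the score, with 1 point per strain in the high (red), middle (grey) and low (blue) group and a bar at each group median. Slc22a7, Cd36, Tmem176a and Acsm3 do not overlap between the high and low groups, whereas Slc27a2 and Khk do.

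Androgen-regulated kidney genes showed the largest median difference of all 36 lists. It was 0.74 over 15 genes, 4 of which also stand in the proximal tubule lists, and 5 (33.3%) were called higher, against 5.78% of named genes, and 0 lower. The list mean ran from 0.48 to 0.83 in the high and from -0.54 to 0.23 in the low group, so that 8 of 8 high arrays lay above every low array. Odc1, ornithine decarboxylase, ran from 0.28 through 0.70 to 2.39 in the high and from -2.46 through -0.63 to 1.04 in the low group, and differed by 1.79 ± 0.433 (adjusted p 0.0173). Cndp2, a dipeptidase, differed by 1.67 ± 0.375 (adjusted p 0.0127) and Adh1, alcohol dehydrogenase, by 1.61 ± 0.332 (adjusted p 0.00879). The others called were Akr1c21 and Gusb, the lysosomal glucuronidase, at 0.79, which was named after its values were seen. Under the strain number block 1 of the 15 was called. Kap, the kidney androgen-regulated protein, was the least regular member. It ran from 0.01 to 2.96 in the high and from -1.67 to 3.11 in the low group, a difference of 1.36 that was not called (adjusted p 0.179).

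In the lists of other nephron segments the share of genes called was at most 14.3%, beside 9.71% of all named genes (5.78% higher), and counts this small are read as description. Their median differences, from 0.04 to 0.20, lay below that of the proximal tubule enzymes (0.37), but 3 of the 4 lay above that of proximal tubule solute uptake (0.09); differences between lists were not tested. In the loop of Henle 2 of 14 genes (14.3%) were called higher and 0 lower, with a median difference of 0.20 that became -0.035 with the first component as covariate. Egf, the growth factor made in the thick ascending limb, ran from 0.31 through 0.75 to 2.98 in the high and from -1.16 through 0.10 to 0.62 in the low group. It differed by 1.16 ± 0.356 (adjusted p 0.0468), and by 1.83 under the strain number block (adjusted p 0.0223). Wfdc15b, a small secreted protein of the same segment, differed by 1.21 ± 0.284 (adjusted p 0.0152). Umod, which encodes uromodulin and defines the thick ascending limb, ran from -0.55 to 1.01 in the high and from -3.08 to 0.70 in the low group. Its difference of 0.81 was not called (adjusted p 0.204).

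Of 13 distal tubule genes 1 (7.69%) was called, a share below that of all named genes. It was Fxyd2, the gamma subunit of the sodium pump, which is also expressed in the proximal tubule. It ran from 0.51 through 1.16 to 1.31 in the high and from -1.03 through 0.28 to 0.68 in the low group and differed by 0.91 ± 0.222 (adjusted p 0.0176). The defining genes of the segment were not called: Slc12a3, the thiazide-sensitive cotransporter, differed by 0.36 (adjusted p 0.197) and Calb1, calbindin, by 0.42 (adjusted p 0.178). The median difference of the list was 0.17.

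Collecting duct principal cells gave 0 calls among 18 genes in limma, with 2 higher and 1 lower at an unadjusted p under 0.05 and a median difference of 0.04. Aqp2, the water channel, ran from 0.28 to 1.09 in the high and from -0.36 to 0.64 in the low group, a difference of 0.31 (adjusted p 0.216). Scnn1a, a subunit of the epithelial sodium channel, differed by 0.69 (adjusted p 0.137). The member of smallest p was Nedd4l, the ubiquitin ligase that removes that channel, at -0.92 (adjusted p 0.063), which became 0.55 with the component. Intercalated cells had 1 of 14 genes (7.14%) called, Slc26a4, which encodes the exchanger pendrin. It ran from -0.01 through 0.61 to 0.82 in the high group and from -0.47 through -0.05 to 0.22 in the low group. The difference was 0.58 ± 0.133 (adjusted p 0.0138), and 0.44 under the strain number block (adjusted p 0.147). Slc4a1 and Atp6v1b1, of acid secretion, differed by -0.17 and 0.16, were not called and had the opposite sign with the component (0.59 and -0.22).

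**Figure D4:**
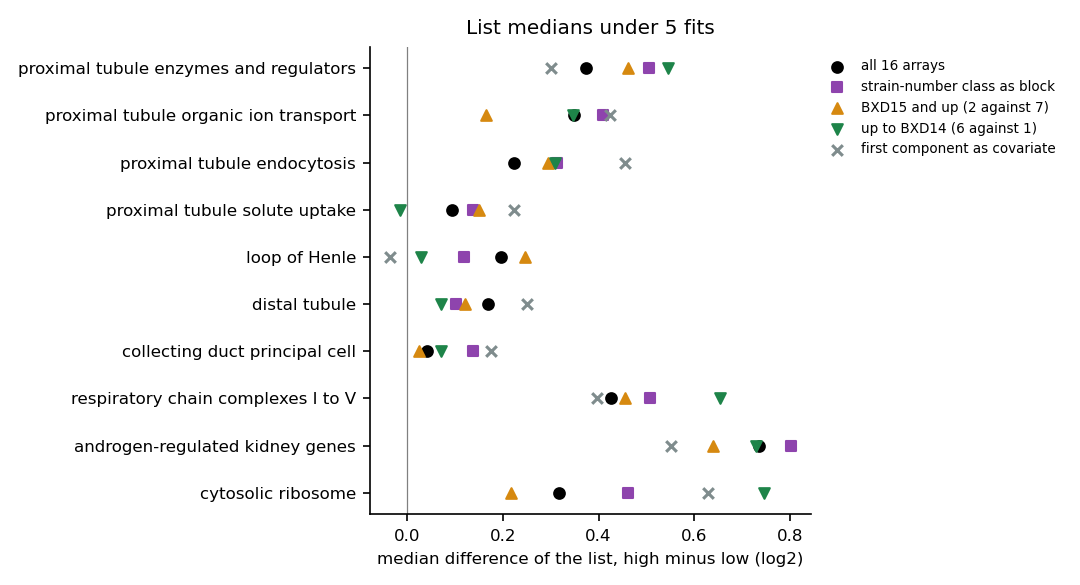
Median high minus low difference (log2) of 10 gene lists in the reported fit over 16 arrays, with the strain number block, in the arrays from BXD15 on, in those up to BXD14 and with the first principal component as covariate. In the reported fit androgen-regulated genes reach 0.74, the respiratory chain 0.43 and the collecting duct list 0.04.

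Marker lists of other cells had few genes called, and for most of them the share lay near the 9.71% of all named genes. Of 23 endothelial genes 2 (8.70%) were called higher, Plvap at 1.35 and Emcn at 0.78, whereas Kdr, the main VEGF receptor, differed by 0.21 (adjusted p 0.343). Of 24 genes of smooth muscle, pericytes and stroma 4 (16.7%) were called higher, led by Fbln5 at 1.63. Podocyte genes went both ways, with 4 of 19 (21.1%) called. Podxl, which coats the foot processes, was higher by 0.83, Actn4 by 0.57 and Vegfa by 0.56, and Trpc6, a channel of the slit region, was lower by 1.12 (a difference of -1.12). Under the strain number block none of these podocyte and endothelial genes was called (adjusted p from 0.0548 for Plvap to 0.154 for Actn4), and Trpc6 differed by 0.039 with the component. Nphs1, which encodes nephrin, ran from -0.28 to 0.37 in the high and -0.58 to 0.19 in the low group and was not called. Macrophage genes had a median difference of -0.16 with 1 of 19 called (Ly86, 5.26%), and lymphocyte genes -0.07 with 2 of 19 (Cd4 and Cd8b1, 10.5%). Fat cell genes had a median of 0.36 over 12 genes with 1 (8.33%) called. This was Lpl, lipoprotein lipase, which ran from -0.03 to 2.07 in the high and from -1.70 to -0.29 in the low group without overlap and differed by 1.83 ± 0.282 (adjusted p 0.00251). The list mean of fat cell genes ran from 0.35 to 0.92 in the high and from -0.04 to 0.47 in the low group. Adrenal genes had 2 called in each direction of 12 (33.3%), liver genes 1 lower of 16, skeletal muscle genes 2 lower of 17 and erythroid genes 1 lower of 6. Neuron genes, with 1 called in each direction of 23, had a median of -0.01, and glia genes, with 1 higher of 15, a median of 0.00. Markers of tubule injury had 2 of 20 called, both lower, and a median of 0.04. Stress and immediate early genes had 2 called higher and 1 lower of 24. The part of these cells and states in the differences above was not tested.

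**Figure D5:**
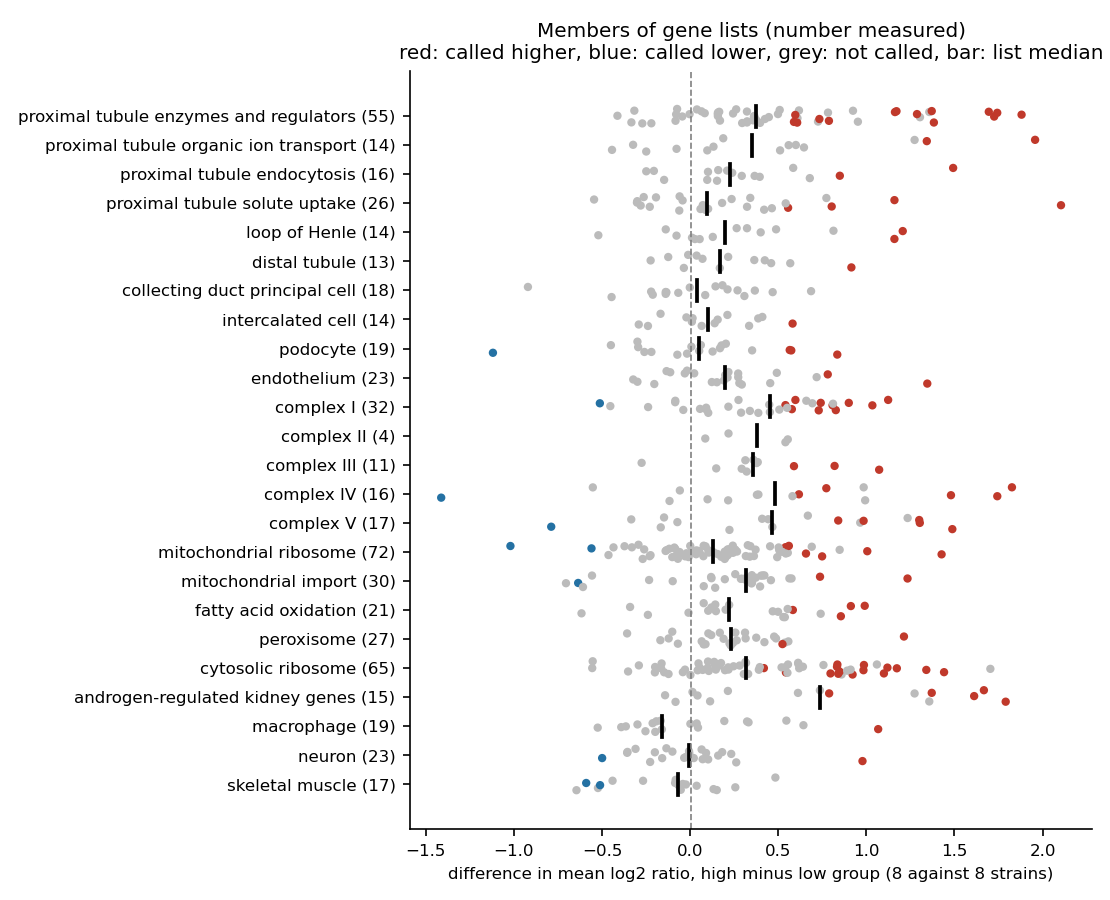
High minus low difference (log2) of each measured gene of 24 lists, with 1 point per gene, red where called higher, blue where called lower and grey where not called, and a bar at the list median. Called genes are all higher in the 4 proximal tubule lists, and Cox4i2 of complex IV lies farthest below 0 at -1.41.

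Mitochondrial genes were higher mainly through the respiratory chain, the complexes that pass electrons to oxygen and make ATP. Of 80 genes of complexes I to V, 23 were called higher and 3 lower, 32.5% in all against 9.71% of named genes. The median difference was 0.43, and 64 of the 80 genes differed above 0, as did 46.7% of all features. The list mean ran from 0.26 through 0.60 to 0.81 in the high group and from -0.24 through 0.18 to 0.36 in the low group. Thus 6 of 8 high arrays lay above every low array. The strain number block left 13 higher and 1 lower with a median of 0.51, beside 1.82% and 1.78% of all features. Without BXD15 and BXD38, 7 of the 80 genes were higher and 2 lower, with a median of 0.34. Complex I then had 3 higher, complexes IV and V each had 2 higher and 1 lower, and complexes II and III had 0 called. The shares of all features were then 3.76% and 3.3%. The excess of calls was thus smaller without these arrays, and BXD15 had the lowest list mean. With the first component as covariate the median was 0.40 with 0 genes called.

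Complex IV, cytochrome c oxidase, had 5 of 16 genes called higher and 1 lower (37.5%), beside 9.71% of all named genes, and a median of 0.48. Cox6a1 ran from 0.81 through 2.30 to 3.13 in the high and from -0.12 through 0.40 to 1.15 in the low group. It overlapped at 1 end, with 7 of 8 high arrays above every low array, and differed by 1.74 ± 0.295 (adjusted p 0.00431). Cox7a2 ran from 1.46 to 2.69 in the high group and from -2.41 to 2.48 in the low group and differed by 1.83 ± 0.497 (adjusted p 0.029), which shows how wide the low group was. Cox5b differed by 1.48 ± 0.438 (adjusted p 0.0405; 0.0671 under the strain number block). The member called lower was Cox4i2, an alternative isoform of subunit 4 used in lung and other tissues. It ran from -2.49 through -1.67 to -0.34 in the high and from -0.68 through -0.15 to 0.50 in the low group and differed by -1.41 ± 0.243 (adjusted p 0.0044).

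Complex V, the ATP synthase, had 5 of 17 genes called higher and 1 lower (35.3%), beside 9.71% of all named genes, with a median of 0.47. Atpif1, the inhibitor protein that limits ATP hydrolysis by this complex, ran from 0.61 through 1.18 to 1.83 in the high group and from -1.50 through 0.01 to 0.56 in the low group. The groups did not overlap and the difference was 1.30 ± 0.255 (adjusted p 0.00686). The subunit genes Atp5d, Atp5g2 and Atp5j2 differed by 1.49, 1.30 and 0.98, of which the last alone was still called under the block. The 1 called lower, Atp5md, differed by -0.79 ± 0.199 (adjusted p 0.0207). Complex I had 10 of 32 genes called higher and 1 lower (34.4%), with a median of 0.45. Ndufc2, Ndufs7, Ndufb4 and Ndufa1 differed by 1.12, 1.03, 0.90 and 0.83, and all but Ndufb4 were still called under the block. Ndufs7, which carries an iron-sulfur cluster, ran from 0.23 through 1.18 to 2.44 in the high and from -0.23 through 0.21 to 0.48 in the low group, and 7 of 8 high arrays lay above every low array. Ndufa8 was the gene called lower, by 0.51 (a difference of -0.51). Ndufa8 and Atp5md were named after their values were seen. Complex III had 3 of 11 genes (27.3%) called, all higher: Uqcr10 at 1.07, Uqcrfs1, the Rieske protein, at 0.82 and Uqcr11 at 0.59. Of these 3, Uqcr10 was still called under the block. For complex II, limma called 0 of 4 genes, with 2 higher and 0 lower at an unadjusted p under 0.05. Sdhc, its membrane anchor, differed by 0.55 (adjusted p 0.101).

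In other mitochondrial lists the share of genes called was near the 9.71% of all named genes, except in fatty acid oxidation. The mitochondrial ribosome had 6 of 72 genes called higher and 2 lower (11.1%) with a median of 0.13. Import and folding genes had 2 higher and 1 lower of 30 (10%) with a median of 0.32, led by Hspe1, the chaperonin of the matrix, at 1.23 ± 0.191 (adjusted p 0.00251). The median of the import list was 0.21 under the strain number block and -0.011 with the first component as covariate. Fatty acid oxidation had 4 of 21 genes (19.0%) called, all higher: Etfb at 0.99 and Etfa at 0.58, the electron transfer flavoprotein, Eci2, an enoyl-CoA isomerase, at 0.91 and Cpt1b, a carnitine palmitoyltransferase, at 0.86. All 4 were also called under the strain number block. The citric acid cycle and pyruvate entry had 2 of 20 (10%) called higher, Dlat and Pdha1 of the pyruvate dehydrogenase complex, at 0.59 and 0.54. Peroxisome genes had 2 of 27 (7.41%), Pex14 at 1.21 and Abcd3 at 0.52. Under the block Dlat, Pdha1 and Pex14 were not called (adjusted p 0.0597, 0.0921 and 0.29). Ppargc1a, the coactivator known for driving mitochondrial genes, ran from -0.75 to 0.51 in the high and from -1.14 to 0.18 in the low group and was not called (difference 0.54, adjusted p 0.118).

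Genes of the cytosolic ribosome were also higher. Of 65 genes of the cytosolic ribosome 15 (23.1%) were called higher and 0 lower, with a median of 0.32. Without BXD15 and BXD38, 9 were called higher and 1 lower, beside 3.76% and 3.3% of all features. Rpl13a ran from 0.78 through 1.37 to 2.02 in the high and from -1.39 through 0.11 to 0.47 in the low group, without overlap, and differed by 1.44 ± 0.254 (adjusted p 0.0047). The proteasome had 4 of 39 genes (10.3%) called, all higher and a share near that of all named genes, with a median of 0.19; 1 was called under the block and 0 without BXD15 and BXD38. Sodium pump genes had no common direction. Of 12 measured, 6 differed above 0, and 2 were called higher and 1 lower (25%), beside 9.71% of all named genes. Their median difference was 0.055, and -0.19 with the first component as covariate. The gene called lower was Fxyd3. It ran from -1.54 through -0.90 to -0.50 in the high group and from -0.36 through -0.06 to 0.19 in the low group. It did not overlap and differed by -0.85 ± 0.15 (adjusted p 0.00469), whereas Fxyd1 was higher by 0.49 (adjusted p 0.0367; 0.469 under the block).

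Among all named genes the largest difference above 0 was that of Tuba1b, an alpha tubulin, which ran from 1.24 through 2.75 to 4.95 in the high and from 0.09 through 0.75 to 1.24 in the low group. The groups met at 1.24 without overlapping, and the difference was 2.16 ± 0.373 (adjusted p 0.0044). After it came 3300002P13Rik, Slc27a2, Msr1, Rhpn1, Myo10, 5830471E12Rik, Slc22a7, Klf2 and Rtn1, from 2.12 down to 1.92. Under the strain number block Slc27a2 and Rtn1 of these 10 were no longer called. Slc27a2 and Slc22a7 are proximal tubule transporters. Msr1 is a scavenger receptor of macrophages, Myo10 an unconventional myosin of filopodia and Klf2 a transcription factor of endothelium. Rhpn1, Myo10 and 5830471E12Rik did not overlap between the groups.

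The largest differences below 0 were those of Ogfrl1 (-2.21), 1700083H02Rik (-2.03), Syt13 (-1.82), C030007H22Rik (-1.74), Ifi204 (-1.71), 4933400B14Rik (-1.71), Ppm1d (-1.67), Mis12 (-1.63), Megf6 (-1.60) and 4930562F07Rik (-1.59). No transporter stood among them, and under the strain number block only Ifi204, Ppm1d and Mis12 of these 10 were still called. Ppm1d, a phosphatase that restrains p53 signalling, ran from -2.07 through -1.43 to -0.65 in the high and from -0.29 through 0.20 to 1.02 in the low group, without overlap (adjusted p 0.00147). Several of these genes followed the first principal component closely. The correlation with it over 31 arrays was -0.94 for 1700083H02Rik and -0.90 for Syt13, and the difference of 1700083H02Rik became 0.31 with that component as covariate.

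The genes most like the score over the 31 arrays, by Pearson correlation, were Tmem176a (0.91), Lamtor2 (0.87), Mmut (0.87), Tuba1c (0.87) and Calml4 (0.87). Mmut encodes methylmalonyl-CoA mutase of the mitochondrial matrix and Lamtor2 a scaffold of the lysosomal surface. Mmut ran from 0.54 through 0.94 to 1.97 in the high and from -0.24 through 0.25 to 0.44 in the low group, without overlap. The most unlike were Slc5a4a (-0.85), Ppm1d (-0.85), Cox4i2 (-0.83), Marveld2 (-0.83) and Slc7a5 (-0.82). Of these, Slc5a4a belongs to the same glucose transporter family as Slc5a2 and ran from -1.32 through -0.78 to -0.29 in the high group and from 0.04 through 0.41 to 0.61 in the low group. Its difference of -1.18 ± 0.145 (adjusted p 5.52e-04 in limma) was opposite in sign to that of Slc5a2, which the ranking itself had set. Slc7a5, the large neutral amino acid transporter LAT1, ran from -1.75 through -1.29 to -0.99 in the high and from -0.68 through -0.09 to -0.02 in the low group, and differed by -1.13 ± 0.132 (adjusted p 5.41e-04). These genes were picked by their correlation with the score that drew the groups. Their differences, small p-values and lack of overlap are favoured by that choice and are no separate support.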

How the data were processed

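The authors deposited log ratios, read here as log2 of strain over reference, a base and direction that the labels do not state. The submitters' processing notes name R 2.0.0 and limma, with no role or order. All 31 columns held the same set of values in different order, so the authors had given the arrays 1 common distribution. Signal intensities are not analysed here, which leaves the signal above background unknown, and the number of arrays limits the precision. Of 23040 probes, 16874 carried 1 gene name, 134 several and 6032 none. Probes with the same single name were averaged (15096 genes) and other probes kept alone, which gave 21262 features. The 5 ranking genes were left out and 21257 features tested between 8 and 8 arrays by the lmFit and eBayes functions of limma 3.58.1 under R 4.3.3 (2-sided, Benjamini-Hochberg over all features, threshold 0.05), without covariates; a block for strain number (up to 14, from 15) and the first principal component were alternatives. The fit was tested on simulated data, with independent features and groups fixed in advance. That simulation does not cover groups drawn from measured values or features that share a component.

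The members, gene lists and alternatives were chosen with earlier results of these data known. Genes were named by rule: the 10 called genes of largest difference in each direction whose probes shared a sign, up to 4 called members of each list or the member of smallest p, the ranking genes, segment markers, and the 5 genes of highest and of lowest correlation with the score. Genes named outside the rule are marked. Promoter sequences come from RefSeq (GRCm38.p6), matched by symbol.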

Additional observations from a re-analysis of the deposited data

Results flagged for a closer look

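Single arrays lay far from the other 7 of their group for 20 of 266 groups examined (each named gene in the high and the low group); chance sets about 1 in 20 apart. The distance of the array to its nearest neighbour, over the whole range of the group, exceeded Dixon's 95% critical value. In the low group, BXD38 was at -2.25 for Rhpn1 (others -0.55 to 0.40), at -2.94 for Myo10 (others -1.15 to 0.21) and at -2.88 for Cyp4b1 (others -0.64 to 1.30). BXD33 of the same group was at -2.13 for Slc22a7 (others -0.86 to -0.17) and at -2.43 for 4933400B14Rik (others -0.32 to 0.77). BXD15 was at -1.82 for Cox5b, -0.68 for Cyp11a1 and -1.20 for the mean of 232 Gapdh spots, for which the others lay between -0.13 and 0.44. BXD31 was at -1.69 for Col1a2 and BXD16 at -0.68 for Slc7a5.

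In the high group, BXD5 was at -4.07 for Syt13 (others -2.39 to -1.65), at -2.88 for 4930562F07Rik and at 1.09 for Aqp2 (others 0.28 to 0.56). BXD14 was at 1.05 for Col1a2 and 0.14 for Cubn (others 0.40 to 0.52). BXD1 was at -2.46 for Egr2 and -0.58 for Eno2, BXD20 at 2.15 for Eci2, BXD12 at -2.94 for Mrpl30, and BXD2 at -0.26 for Hnf4a.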

How the results depend on the processing

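The 2072 calls (1053 higher, 1019 lower) became 3834 (1885, 1949) with the score as a number over 31 arrays, 4479 (2202, 2277) with array weights, 334 (164, 170) with treat at 0.2, 765 (387, 378) with strain number class as a block, 2 (1, 1) with the first principal component as covariate and 50 (4, 46) in arrays from BXD15 on, the last chosen after seeing the data. Leaving a gene out of the score gave 1239 (650, 589) without Slc22a12, 259 (174, 85) without Slc5a2 and 3475 (1746, 1729) without Slc34a1. Leaving out 1 array gave 1278 to 2980 calls (632 to 1505 higher, 644 to 1475 lower); BXD2 (1293), BXD20 (1278) and BXD5 (1371) moved the total by over 1.5 times, and BXD12 the higher calls (683). The causes were not tested.

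The median difference of solute uptake genes became 0.24 with 6 against 6 arrays and 0.24 with spot position removed, and that of the loop of Henle -0.035 with the component. With 1 array left out the medians ran from 0.05 to 0.14 (solute uptake), 0.16 to 0.26 (loop of Henle), 0.10 to 0.22 (distal tubule), -0.0035 to 0.087 (collecting duct) and 0.35 to 0.48 (respiratory chain). With the component as covariate 1700083H02Rik turned to 0.31, Trpc6 to 0.039, Col3a1 to -0.082, Anxa3 to 0.042, Chgb to -0.27, Mrps33 to -0.46, Mrpl30 to 0.24, Mrpl27 to -0.037 and Psmd2 to -0.053. No other fitted setting reversed a called gene among those named. In the arrays up to BXD14, which were not fitted and hold BXD9 as the only low array, Pex14 differed by -0.48 and Col3a1 by -0.016. Of 114 named genes called, 56 lost their call under the block and 113 with the component. No paired analysis was possible because each strain had 1 array.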

Other observations

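Genes called between the groups were spread over all chromosomes. The share of named genes called ran from 7.6% on chromosome 12 to 11.4% on chromosome 15, beside 9.71% of all named genes. For 74.6% of the called features the median of the 15 middle arrays lay between the medians of the high and the low group. The wide gap between the groups, for which features were called, favours that position. The median absolute correlation with the first principal component over 31 arrays was 0.64 for called features and 0.34 for all features.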
